A study of Mus musculus with 7 samples.

Results

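The E proteins and their Id inhibitors were examined in memory B cells (MBCs) and plasma cells (PCs), the alternative outcomes of an activated B cell. The 6 genes were chosen by name, 3 E protein genes (Tcf3, Tcf4 and Tcf12) and 3 Id genes (Id1, Id2 and Id3). All 6 were found among the 48795 genes of the deposited table, and 5 passed the filter on low values. The libraries are bulk RNA sequencing of splenic cells from wild type C57BL/6 females aged 8 to 12 weeks, taken 10 days after intravenous sheep red blood cells (SRBC), a T cell-dependent antigen. Every group was thus immunized, and no unimmunized or naive B cell library was analysed here. The 3 MBC libraries were sorted as B220+ CD138- IgD- CD38+ CD273+ cells and the 4 PC libraries as B220lo CD138+ IgD- cells, both from cells incubated with CD43 magnetic beads. The labels do not say whether libraries came from separate mice, so p-values measure only the spread between these libraries, which may be technical.

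E proteins are basic helix-loop-helix transcription factors that bind, as dimers, short DNA motifs called E-boxes. Tcf3 encodes E2A, which is required for commitment to the B lineage, Tcf4 encodes E2-2, and Tcf12 encodes HEB. Tcf4 is not the Wnt pathway factor that goes by the same name and is encoded by Tcf7l2. Id proteins have the dimerization domain but no basic region, so that an E protein paired with an Id protein cannot bind DNA. The ratio of Id to E proteins is therefore known as a setting of E-box activity in lymphocytes, with Id3 best known in B and T cells and Id2 in innate lymphoid and natural killer (NK) cells.

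The members lie on different chromosomes of the GRCm38 build, and Tcf3 (ENSMUSG00000020167) spans chr10:80409514-80433647 and Tcf12 (ENSMUSG00000032228) chr9:71842688-72111871. The Id genes are far shorter, with Id1 (ENSMUSG00000042745) at chr2:152736251-152737410, Id2 (ENSMUSG00000020644) at chr12:25093799-25097140 and Id3 (ENSMUSG00000007872) at chr4:136143497-136145755. The spans of Tcf12 and Tcf4 overlap 11 and 1 other annotated genes, so some of their reads could belong to those genes.

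E-boxes are the sequences on which this family acts, and 2 forms bound by E proteins were looked for in the promoter windows of RefSeq, 250 bases before to 50 after each gene start. One form is CAGCTG, which reads the same on both strands. The other is CAGGTG, searched on either strand. Windows were matched for 4 of the 6 members. Matches lay in the single window of Id2 and in 1 of the 3 of Tcf12, while the windows of Tcf3 and Id3 held neither form. Distances below are to the RefSeq start of the window, which can differ from the ends of the gene spans given above. The Id2 match lies inside the span of Id2 given above, so it is not upstream of that span. Of all 32851 mouse windows, 16.3% held CAGCTG, 20.2% held CAGGTG and 32.9% held either. The matches of the members are shown with those of Bhlha15, the only listed helix-loop-helix partner of E proteins called below. The E-box is in capitals, and each sequence is on the strand of its gene. A match is a string of letters and not evidence of binding.
Tcf12, chr9:72112042-72112069, minus strand, 240 bases before the start: agatgctgccCAGCTGcgtccccgtcgc
Id2, chr12:25096271-25096300, minus strand, 196 bases before the start: aatttgccacccCAGCTGggctctcgcccg
Bhlha15, chr5:144190074-144190103, plus strand, 200 bases before the start: taaccccaaggcCAGGTGtcctggccagat
Bhlha15, chr5:144190219-144190248, plus strand, 55 bases before the start: ggggcgtggccgCAGGTGccgccctggccc

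Values were deposited as TPM, each library's transcript abundances per length on a common total, so that levels of different genes can be set side by side within a library. Between libraries, TPM was divided by a scaling factor, giving scaled TPM, because immunoglobulin transcripts took 49.4% to 55.9% of PC libraries and 1.65% to 3.16% of MBC libraries. Mitochondrial transcripts also differed with the group, at 33.2%, 33.5% and 19.7% of MBC libraries and 8.10% to 9.80% of PC libraries, and their part in the results was not tested. As TPM holds no read totals, depth was estimated from the steps of low values: 1 TPM stood for about 6.25 to 16.4 reads per kb of transcript, least in MBC replicates 1 and 2. Where values of single libraries are listed, they are in order of replicate number, MBC 1 to 3 and PC 1 to 4. The sort was checked on marker transcripts: all 5 PC markers (Sdc1, Prdm1, Xbp1, Irf4 and Jchain) were called higher in PCs. Of the 3 MBC sort markers 1 was called, Ptprc, the gene that encodes B220, which was lower in PCs. Its TPM covers all transcripts of the gene and not the B220 form alone. Ighd transcripts were present although both sorts were IgD-. They were at 85.8, 39.95 and 9.55 scaled TPM in MBCs and 14.2 to 38.8 in PCs, and were not called. The library labelled MBC replicate 3 went against its label. It had 6.77 scaled TPM of Cd38 against 130.3 and 186 in the other MBC libraries, its Pdcd1lg2 (CD273) was 2.59 against 43.3 and 24.4, and its 6 germinal center (GC) markers summed to 625 scaled TPM against 232 and 238. Its PC markers went with the label, summing to 186 scaled TPM. That sum was 169 and 130 in the other MBC libraries and 8742 to 14570 in PCs. Over all tested genes its Pearson's r was 0.70 to 0.777 with the PC libraries and 0.687 and 0.681 with the other MBC libraries. Those libraries had 0.537 to 0.564 with the PCs. It listed 18061 genes above 0, against 12983 and 11527 in the other MBC libraries and 14463 to 16768 in PCs. The part of gene detection in these r values was not tested. MBC replicate 2 held 2897 scaled TPM of 4 erythroid markers, and the other 6 libraries at most 72.6. In bulk samples, fewer cells of a type and less RNA per cell cannot be told apart.

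None of the 5 tested members was called different between MBCs and PCs. A gene was called at an adjusted p under 0.05 (limma, Benjamini-Hochberg over all 11573 genes tested) with a log2 fold change of at least 1 in size. Of all tested genes 8.55% were called, 6.41% (742) higher and 2.14% (248) lower in PCs. Log2 fold changes are PC minus MBC on log2(scaled TPM + 1), which understates the change of low genes. Missing this threshold does not show that a gene was the same in both populations, and the 95% intervals given below are wide for 3 against 4 libraries. Tcf4 was the most abundant member in every library, and Id1 was listed at 0 in all 7.

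**Figure D1:**
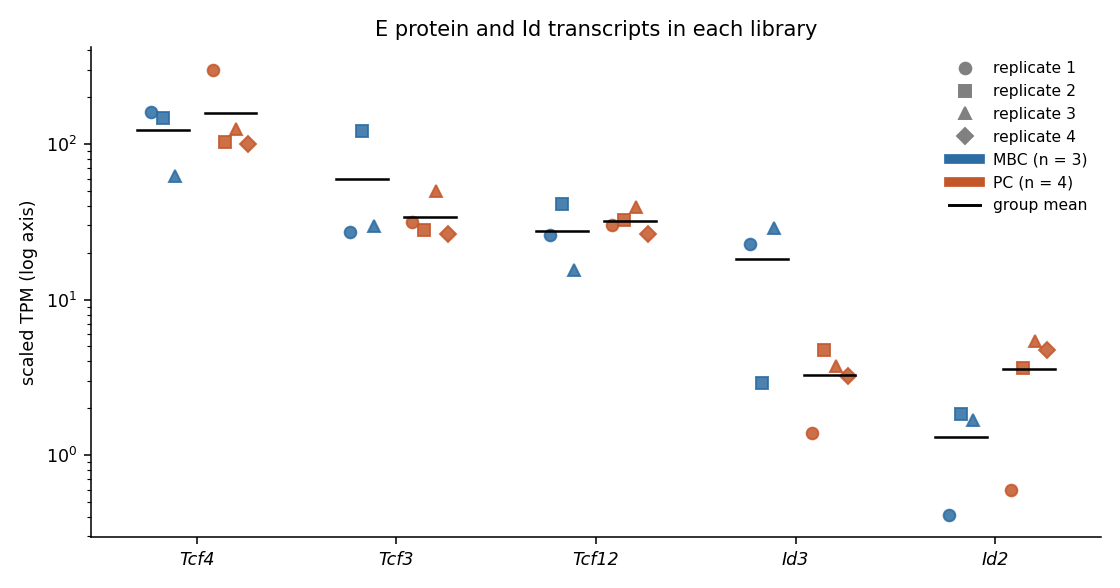
Scaled TPM (log axis) of the 5 members listed above 0, with 1 point per library, marker shape for the replicate number, color for the group and a black line at the group mean. Tcf4 tops every library, the Tcf3 and Tcf12 points of both groups intermingle, and Id3 is at 22.7 and 29.0 in MBC replicates 1 and 3 but at or below 4.74 in the other 5 libraries.

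Tcf4 (ENSMUSG00000053477), encoding E2-2, lies at chr18:69343356-69689079. The MBC libraries had 162, 146 and 62.7 scaled TPM of Tcf4 and the PC libraries 301.1, 103, 125 and 101. The groups overlapped, with the lowest value in the library labelled MBC replicate 3 and the highest in PC replicate 1. Mean levels were 123.5 ± 53.2 (SD, n = 3) for MBCs and 157.5 ± 96.4 (SD, n = 4) for PCs. The fitted log2 difference was 0.30 (SE 0.49, 95% interval -0.80 to 1.40; limma, adjusted p = 0.754). Within each library Tcf4 exceeded at least 93.1% of the tested genes, in MBCs and PCs alike, and this rank does not depend on the scaling between libraries. Plasmacytoid dendritic cells, in which Tcf4 is abundant, had 5 markers that summed to 30.6, 10.5 and 18.5 scaled TPM in MBCs and to 27.8, 12.6, 14.1 and 15.1 in PCs. Pacsin1 alone was 12.45, 10.5 and 18.4 in MBCs and 13.1, 10.1, 12.3 and 12.6 in PCs. Outside the first replicates it was most of the sum. The first replicate of each group was highest for Tcf4 and for this sum. In MBC replicate 1, Siglech (6.05) and Ccr9 (7.21) stood out, but PC replicate 1 was highest through Cox6a2 (14.1, against 0.837 to 1.27 in the other PCs) and had Siglech and Klk1 at 0. The part of these cells in the Tcf4 values was not tested.

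Tcf3 levels were 27.1, 121 and 29.8 scaled TPM for the MBC libraries and 31.7, 28.1, 49.6 and 26.3 for the PC libraries. MBC replicate 2, the library with erythroid transcripts, stood above all others, and the remaining MBC values lay within the range of the PCs. The log2 fold change was -0.48 (SE 0.54, 95% interval -1.69 to 0.73; limma, adjusted p = 0.637) with all libraries and 0.17 (adjusted p = 0.825) without MBC replicate 2. The part of erythroid RNA in this value was not tested.

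For Tcf12, the MBC libraries had 26.1, 41.0 and 15.5 scaled TPM and the PC libraries 30.2, 32.5, 39.5 and 26.4. All PC values fell inside the MBC range. It was the steadiest member within PCs, where the highest library was 1.49-fold the lowest. The log2 fold change was 0.30 (SE 0.41, 95% interval -0.60 to 1.21; limma, adjusted p = 0.697), and without the library labelled MBC replicate 3 it was -0.04 (adjusted p = 0.945).

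Of the Id inhibitors, Id3 had 22.7, 2.91 and 29.0 scaled TPM across the MBC libraries and 1.38, 4.74, 3.74 and 3.25 across the PC libraries. MBC replicates 1 and 3 were above all PC libraries, whereas MBC replicate 2 fell inside the PC range. Mean Id3 was 18.2 ± 13.6 (SD, n = 3) for MBCs and 3.28 ± 1.41 (SD, n = 4) for PCs. The fitted log2 difference was -1.79 (SE 0.75, 95% interval -3.46 to -0.11; limma, adjusted p = 0.181), and it was the only one of the 5 with an unadjusted p (0.0392) under 0.05. An exact two-sided permutation test of the group means gave p = 0.143, where 0.0286 is the smallest it can give. One library decided the call: without MBC replicate 2, Id3 was called lower in PCs at -2.72 (SE 0.50; limma, adjusted p = 0.0133), where 1.37% of all tested genes were called lower. Without the library labelled MBC replicate 3 it was -1.22 (adjusted p = 0.288). At about 29.7 reads per kb, the Id3 value of MBC replicate 2 was not at the limit of detection. Ranked among the tested genes of its own library, Id3 stood at percentile 75.2, 38.3 and 83.9 for MBCs and from 14.7 to 36.3 for PCs. The high GC markers and low Cd38 of the library labelled MBC replicate 3, and the erythroid transcripts of MBC replicate 2, stand beside its values, and their part in the Id3 values was not tested.

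Id2 was low in all libraries, with 0.412, 1.83 and 1.68 scaled TPM for MBCs and 0.598, 3.61, 5.45 and 4.71 for PCs. PC replicates 2 to 4 were above every MBC library, and PC replicate 1 was below 2 of them. The log2 fold change was 0.88 (SE 0.61, 95% interval -0.50 to 2.26; limma, adjusted p = 0.419), and without PC replicate 1 it was 1.38 (SE 0.55; adjusted p = 0.201). The lowest values, in MBC replicate 1 and PC replicate 1, rested on about 4.69 and 5.50 reads per kb and are imprecise.

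Markers of T cells, NK cells and innate lymphoid cells, which can express Id2, were higher in the PC libraries. The 8 T cell markers summed to 0, 0 and 2.19 scaled TPM for MBCs and to 18.6, 28.4, 35.8 and 34.7 for PCs. The 6 markers of NK and innate lymphoid cells summed to at most 0.0828 in MBCs and to 1.68, 10.1, 21.3 and 4.08 in PCs. Among the PCs, replicate 1 was the lowest and replicate 3 the highest for Id2 and for both sums. Single markers did not all follow this order. In PC replicate 3, Nkg7 alone was 17.5 of the NK and innate lymphoid sum, and Trac 23.1 of the T cell sum. Ncr1 ran the other way, highest in PC replicate 1 (1.68) and lowest in PC replicate 3 (0.209). Cd3e was also lowest in PC replicate 3, at 3.86 against 11.8 to 14.2 in the other PCs. Across the groups the order differed: MBC replicate 2 had more Id2 than PC replicate 1, with both sums at 0. Of the T cell markers 2 of 3 tested, Cd3e and Trac, were called higher in PCs. None of the 6 NK and innate lymphoid markers passed the filter, and Il1rl1 was at 0 throughout. The 7 myeloid markers summed to 47.5 to 152 in MBCs and 173 to 222 in PCs, nearly all of it Cst3 (45.2 to 123 in MBCs, 167 to 217 in PCs). Lyz2, Csf1r, Itgam and Cd14 had their highest values in MBC libraries, and Cd14 was at 0 in every PC library. The part of these cells in the Id2 values was not tested.

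Id1 was listed at 0 in all 7 libraries and was not tested. A count of 3 reads would correspond to 0.182 to 0.48 TPM for a transcript of 1 kb, so a level below that could not be detected at this depth. Id4, the remaining gene of the family, was also listed at 0 in every library.

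The direction of the Tcf4 and Tcf12 differences changed when the scaling between libraries was left out. It also changed with the scaling kept, without MBC replicate 3 (-0.13 for Tcf4 and -0.04 for Tcf12) and, for Tcf4, without PC replicate 1 (-0.05). With TPM as deposited, the log2 fold changes of Tcf4, Tcf3 and Tcf12 were -1.01, -1.77 and -0.975, but the median of all tested genes was then -0.91 in place of 0.14. Relative to that median they were -0.10, -0.86 and -0.06, against 0.16, -0.62 and 0.16 with scaled TPM. Id3 was -1.99 relative to the median with TPM as deposited and -1.93 with scaled TPM. In deposited TPM, Tcf3 (adjusted p = 0.0288) and Id3 (adjusted p = 0.0297) were called lower in PCs by limma and did not overlap between the groups. These counts have a high background: 26.1% of all tested genes were called lower in PCs on that scale (3018 lower and 472 higher), and 34.3% lay wholly below the MBC values. The title codes of the samples have 2 prefixes whose meaning the labels do not give. Within the more frequent prefix (2 MBC and 3 PC libraries) the differences were 0.03 for Tcf4, -0.68 for Tcf3, 0.05 for Tcf12, 0.84 for Id2 and -1.25 for Id3, and limma called none of them, beside 14.3% of all tested genes. The other prefix holds 1 library of each group, MBC replicate 3 and PC replicate 4, and allows no test. In that pair Tcf4 was 62.7 and 101 scaled TPM, Tcf3 29.8 and 26.3, Tcf12 15.5 and 26.4, Id2 1.68 and 4.71, and Id3 29.0 and 3.25.

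**Figure D2:**
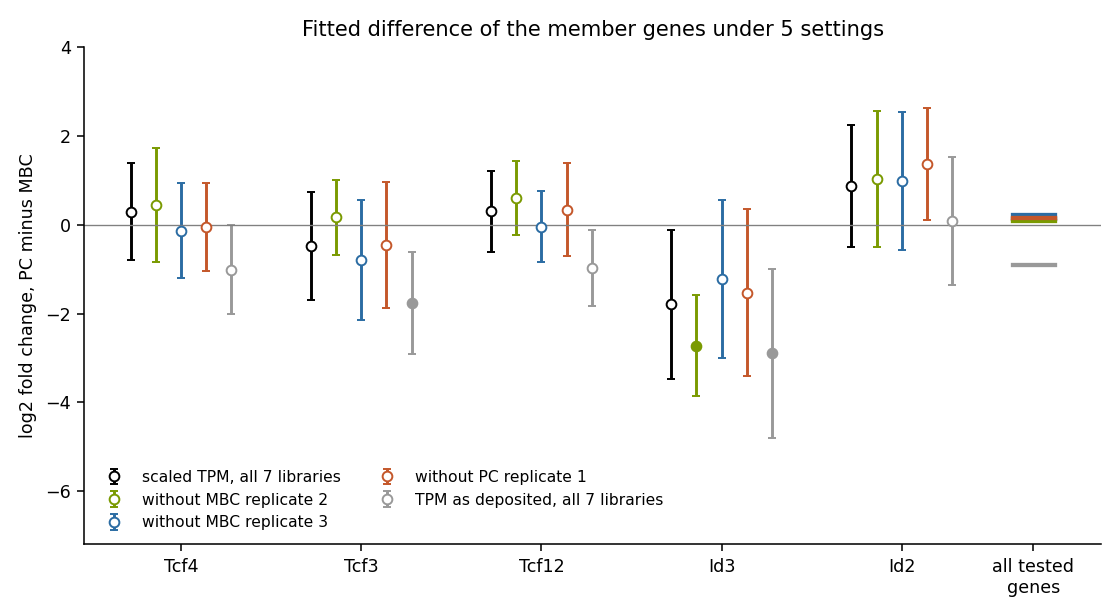
Log2 fold change, PC minus MBC, of the 5 tested members with 95% intervals, from the fit on all libraries, the fits without MBC replicate 2, MBC replicate 3 or PC replicate 1, and the fit on TPM as deposited. Filled points were called, open points were not; bars at the right mark the median of all tested genes, which is -0.91 for TPM as deposited and between 0.08 and 0.21 for the others.

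Shares within a library do not depend on that scaling. Tcf4 made up 75.3%, 47.5% and 58.0% of the summed E protein TPM for the MBC libraries and 82.9%, 63.0%, 58.4% and 65.6% for the PC libraries. Tcf3 supplied 12.6%, 39.2% and 27.6% in MBCs and 8.74% to 23.2% in PCs, and Tcf12 12.1% to 14.4% in MBCs and 8.33% to 19.9% in PCs. All 3 shares overlapped between the groups. E2-2 transcripts were thus the largest E protein component in each of the 7 libraries, by the smallest margin in MBC replicate 2, where Tcf4 was 1.21 times Tcf3.

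The Id pool differed more from library to library. Id3 was 98.2%, 61.4% and 94.5% of the summed Id TPM for the MBC libraries and 69.8%, 56.8%, 40.7% and 40.8% for the PC libraries. The groups overlapped only through MBC replicate 2 and PC replicate 1. In PC replicates 3 and 4, Id2 was the more abundant Id transcript, with 0.686 and 0.689 TPM of Id3 per TPM of Id2, and in the other 5 libraries Id3 was.

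**Figure D3:**
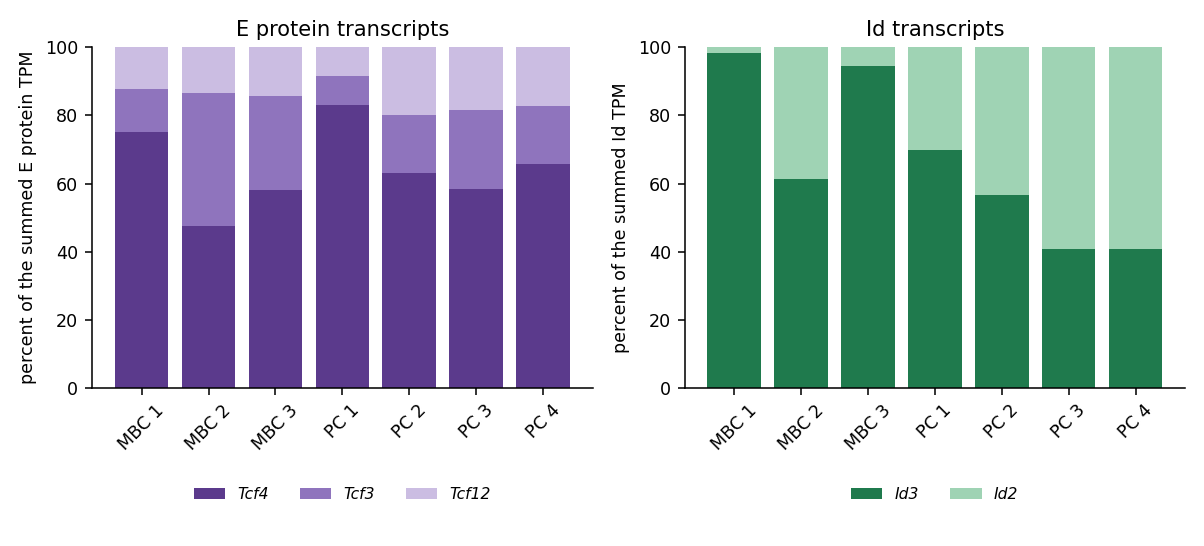
Share of each gene in the summed TPM of the E protein genes (left) and of the Id genes (right), 1 bar per library. Tcf4 is the largest E protein share in every bar, between 47.5% and 82.9%, and Id3 fills at least 94.5% of the Id bar in MBC replicates 1 and 3 and at most 69.8% in the others.

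Set against the E proteins, Id transcripts were the minority in every library. The summed Id TPM was 10.8%, 1.54% and 28.4% of the summed E protein TPM for the MBC libraries and 0.546%, 5.10%, 4.30% and 5.19% for the PC libraries. MBC replicates 1 and 3 were above all PC libraries and MBC replicate 2 was below 3 of the 4. The log2 of this ratio averaged -3.68 ± 2.14 (SD, n = 3) for MBCs and -5.16 ± 1.58 (SD, n = 4) for PCs, a difference of -1.47 that was smaller than the spread among MBC libraries. The difference was -0.54 without the library labelled MBC replicate 3, -0.68 without PC replicate 1, -2.64 without MBC replicate 2 and -0.83 within the more frequent title prefix. TPM counts transcripts, so these ratios are not ratios of protein.

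**Figure D4:**
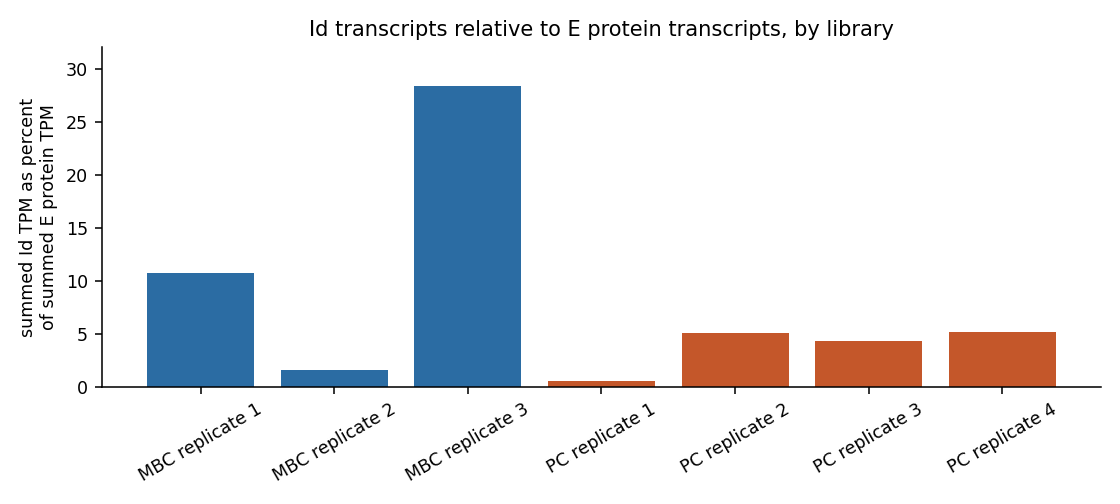
Summed Id TPM as a percent of summed E protein TPM in each library, MBCs in blue and PCs in orange. The bars run from 0.546% in PC replicate 1 to 28.4% in the library labelled MBC replicate 3, and MBC replicate 2 lies among the PCs.

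The members did not move as a block across libraries. Over the 7 libraries, which share the scaling and the library-wide differences described above, the log2(scaled TPM + 1) values of Tcf3 and Tcf12 had a Pearson's r of 0.61, those of Tcf4 and Tcf12 0.51, and those of Tcf4 and Tcf3 0.15. Id3 was opposed to all E proteins, at -0.73 with Tcf12, -0.56 with Tcf4 and -0.35 with Tcf3, and its r with Id2 was -0.31. These are descriptions over 7 points.

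The tested genes most like each member were sought over the same 7 points. Tcf3 was most like Pot1b (r = 0.99), Senp2 (0.986) and Tmx4 (0.984), all highest in MBC replicate 2. Tcf12 was most like Ddi2 (0.969), H2-T24 (0.964; a gene of a multigene family that can share reads) and Pkd1 (0.962). Id3 was most like Cpt1a (0.985), the carnitine palmitoyltransferase of fatty acid oxidation, Ell3 (0.964) and Utp14b (0.957). Id2 was most like Immp1l (0.969) and P4ha1 (0.967).

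Tcf4 was most like Gm37376 (0.983), Tlk2 (0.967) and Thap2 (0.96). Gm37376 is annotated on the opposite strand within Malat1, an abundant noncoding RNA kept in the nucleus, and reads of the pair cannot be told apart without strand. Malat1, looked up after that value was seen, had r = 0.943 with Tcf4: scaled TPM of Malat1 was 1966, 1774 and 704 for the MBC libraries and 3580, 1813, 1813 and 1517 for the PC libraries. Like Tcf4, it was highest in PC replicate 1 and lowest in the library labelled MBC replicate 3.

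Of the 14 genes listed as partners of E proteins, 9 were tested and 1 was called, Bhlha15, which was higher in PCs, where 6.41% of all tested genes were. The median log2 fold change of the 9 was -0.44, against 0.14 over all tested genes. Bhlha15 encodes MIST1, a tissue-restricted helix-loop-helix factor of secretory cells that pairs with E proteins and is known from PCs. Its MBC values were 0, 0.027 and 0.156 scaled TPM and its PC values 55.3, 58.6, 56.5 and 57.5. The groups were far apart and the PC libraries nearly equal. The fitted log2 difference was 5.78 (SE 0.40; limma, adjusted p = 5.3e-05), a size that depends on the added 1 because the MBC values are near 0.

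The coactivators Ep300 (p300) and Crebbp (CBP), which E proteins recruit, were not called. Ep300 levels were 252, 268 and 84.1 scaled TPM for MBCs and 59.1 to 95.4 for PCs (log2 fold change -1.31, SE 0.44; limma, adjusted p = 0.107), and Crebbp was 99.8, 70.5 and 28.8 in MBCs and 26.4 to 43.9 in PCs (-0.80, SE 0.46; adjusted p = 0.327). In both genes the library labelled MBC replicate 3 was the MBC library that overlapped the PCs. Without it both were called lower in PCs, at -1.85 (adjusted p = 0.005) and -1.30 (adjusted p = 0.0346), where 8.2% of all tested genes were called lower. Ep300 was also called lower by limma with all libraries when the title prefix, described above, was a covariate (-1.39, adjusted p = 0.0417). With all libraries it was called lower too when immunoglobulin genes were removed (-1.61, adjusted p = 0.0431) and with quantile normalization (-1.87, adjusted p = 0.0338). The same held within the more frequent prefix (-1.76, adjusted p = 0.02). Without scaling it was called lower with all libraries (-2.63, adjusted p = 0.0031), as were 26.1% of all tested genes.

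Of the 12 genes listed as E protein targets in B-lineage cells, 8 were tested and 3 were called, all lower in PCs, where 2.14% of all tested genes were. The median of the 8 was -0.56. Pax5, which maintains B cell identity, had 224, 789 and 138 scaled TPM for MBCs and 16.1 to 48.3 for PCs, without overlap (log2 fold change -3.46, SE 0.60; limma, adjusted p = 0.0063). Ebf1, another B lineage factor, was 118, 84.1 and 55.5 in MBCs and 11.4 to 23.4 in PCs (-2.37, SE 0.41; adjusted p = 0.0061). Spib, an ETS family factor, was 76.1, 177.5 and 134 in MBCs and 16.2 to 39.2 in PCs (-2.12, SE 0.44; adjusted p = 0.0158).

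None of the 5 other targets tested was called in the fit on scaled TPM of all libraries. Foxo1 was 30.3 to 33.3 scaled TPM in MBCs and 28.5 to 34.0 in PCs, with a log2 fold change of -0.01 and a 95% interval of -0.72 to 0.69. Cd79a, a chain of the B cell receptor, was 374 to 1040 in MBCs and 458 to 510 in PCs (-0.36; limma, adjusted p = 0.605). With TPM as deposited limma called Foxo1 (-1.30, adjusted p = 0.018) and Cd79a (-1.68, adjusted p = 0.0071) lower in PCs. On that scale 26.1% of all tested genes were called lower. Cd79a was also called lower with quantile normalization (-1.84; limma, adjusted p = 0.0275), as were 490 of the 11573 tested genes. Rag1 reached at most 2.10 in any library. Cdkn1a, the cell cycle inhibitor p21, was called higher in PCs (2.61; limma, adjusted p = 0.0322) in the fit that omits the library labelled MBC replicate 3. In that fit 15.1% of all tested genes were called higher in PCs. Cdkn1a was 0.346 and 0 scaled TPM in the MBC libraries that remained. Among the E protein targets not tested, Vpreb2 was listed at 0 in all libraries.

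Of the 15 genes listed as inducers of Id transcription, 9 were tested and none was called by limma, with a median of -0.07. Tgfbr2, a chain of the TGF-beta receptor, had 43.1, 48.9 and 19.96 scaled TPM for MBCs and 11.6 to 15.4 for PCs (log2 fold change -1.35, SE 0.42; limma, adjusted p = 0.0819). Without the library labelled MBC replicate 3 it was called lower, at -1.73 (adjusted p = 0.0098), as it was with all libraries after removal of immunoglobulin genes (-1.66, adjusted p = 0.0379) or without scaling (-2.61, adjusted p = 0.0022), and within the more frequent prefix (-1.73, adjusted p = 0.0375). Of all tested genes, 8.2% were called lower without MBC replicate 3 and 26.1% without scaling. Egr1, an immediate early factor that induces Id3, was 20.4 to 26.7 in MBCs and 37.1 to 69.4 in PCs. Its log2 difference was 0.99 (SE 0.36; limma, adjusted p = 0.129) and was -0.29 with TPM as deposited. Neither gene overlapped between the groups in scaled TPM, which held for 21.7% of all tested genes. Of the BMP effectors, Smad1 and Smad9 did not pass the filter, Smad9 being listed at 0 in all libraries. Smad5 did, at -0.68 (limma, adjusted p = 0.517), and was called lower in PCs with TPM as deposited (-1.87, adjusted p = 0.031). Smad6, an inhibitory Smad, did not pass.

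None of the 5 genes of Id and E protein turnover was called by limma on scaled TPM of all libraries, with a median of 1.57. In Cops5 and Usp1 the library labelled MBC replicate 3 was near the PCs. Cops5, a subunit of the COP9 signalosome, had 10.4, 3.97 and 52.3 scaled TPM for MBCs and 33.9 to 54.1 for PCs (log2 fold change 1.67; limma, adjusted p = 0.179). Usp1, a deubiquitinase that stabilizes Id proteins, had 11.4, 7.50 and 41.4 for MBCs and 30.4 to 40.9 for PCs (1.10; adjusted p = 0.248). Without that library 4 of the 5 were called higher in PCs, Cops5 at 2.59 (adjusted p = 0.0059), Stub1 at 2.96 (0.0071), Usp1 at 1.77 (0.0109) and Skp2 at 2.56 (0.0205), beside 15.1% of all tested genes. Huwe1, a ubiquitin ligase of Id proteins, had 162, 244 and 99.9 scaled TPM for MBCs and 169, 85.1, 99.2 and 96.8 for PCs (-0.54; limma, adjusted p = 0.441). With TPM as deposited Huwe1 was called lower in PCs (-1.86; limma, adjusted p = 0.0054), as were 26.1% of all tested genes.

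**Figure D5:**
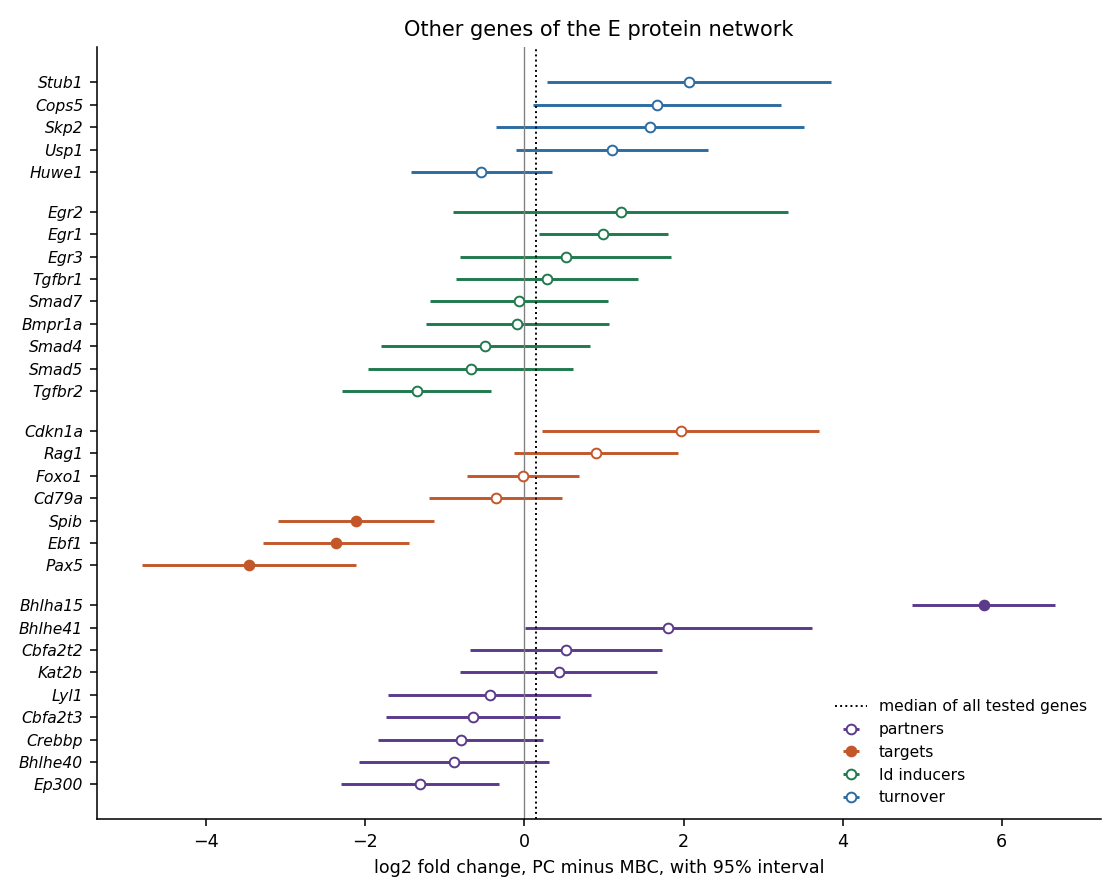
Log2 fold change, PC minus MBC, with 95% interval for 30 of the 31 tested genes of the 4 lists, from the fit on all 7 libraries; filled points were called, open points were not, and the dotted line is the median of all tested genes, 0.14. The 4 called genes are Bhlha15 at 5.78 and Spib, Ebf1 and Pax5 between -2.12 and -3.46.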

How the data were processed

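Amplified cDNA (Nugen) was sequenced on an Illumina HiSeq. The authors deposited TPM values, rounded to 2 decimals, for 48795 Ensembl genes in 7 libraries; the submitters' processing notes name STAR 2.5.2a, RSEM 1.3.0, DESeq2 1.18.1 and GRCm38, and the annotation release is not given in the sources used here. Symbols and positions came from GENCODE M21 (48349 genes matched) and promoter windows from RefSeq GRCm38.p6. TPM was divided by size factors of the median-ratio kind, from the 9305 genes that no library lists at 0 (factors 1.48 to 2.05 in MBCs, 0.636 to 0.813 in PCs). Genes at 1 TPM or more in at least 3 libraries were tested with limma 3.58.1 in R 4.3.3 (eBayes with trend, no covariate) on log2(scaled TPM + 1), and the procedure was tested on simulated data. The test used for these libraries is not given in the sources used here. Reads per TPM were estimated from genes with 1 annotated transcript, of whose low values 76.5% to 84.7% lay near a whole read (within 0.15), where 30.0% would by coincidence; such depths cover counting error only. No pair of libraries was a copy. Python 3.11.15, pandas 2.3.3, numpy 2.4.6 and matplotlib 3.10.9 were used for the rest. The named genes were all members, the 3 genes most correlated with each, and of each list the called genes or, below 2 calls, the 2 most abundant; other genes were named after their values were seen. The members, lists and alternatives were chosen with earlier results of these data known. Some genes that this rule or the lists hold are not reported here.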

Additional observations from a re-analysis of the deposited data

Results flagged for a closer look

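Among the 21 values examined in PCs (the members, their shares and the named list genes), 2 had 1 library apart from the other 3 by Dixon's test at the 95% level (gap over range 0.88 and 0.832). Chance gives such a gap in about 1 of 20 groups. Both were in PC replicate 1. Tcf4 was 301.1 scaled TPM in that library, and the remaining PCs ranged from 100.7 to 124.8. Huwe1 was 168.7 scaled TPM there and between 85.1 and 99.2 in the others. The same library had the lowest Id2 and the lowest Id3 of the PCs. The MBC group, with 3 libraries, was not examined.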

How the results depend on the processing

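Id2 and Id3 kept their sign in every alternative run, and Id2 was called in none. Id1, at 0 throughout, gave no value. With TPM as deposited Tcf3 was -1.77, Tcf4 -1.01, Tcf12 -0.975, Id3 -2.90 and Id2 0.086 in place of 0.88 (2 members called), and Egr1 was -0.29. With quantile normalization Tcf4 was -0.21. Leaving out each library in turn gave -0.87 to 0.17 for Tcf3, -0.13 to 0.53 for Tcf4, -0.041 to 0.60 for Tcf12 and -2.72 to -1.22 for Id3, with 0 to 1 members called; Tcf4 also changed sign without PC replicate 1 (-0.05). Genes called higher and lower in PCs numbered 472 and 3018 with TPM as deposited, 384 and 408 with immunoglobulin genes removed, 437 and 123 with all genes above 0 tested, and 456 to 1624 and 93 to 881 with a library left out; 490 were lower with quantile normalization and 448 within the more frequent title prefix. Of the list genes, 4 were called in the main fit, 13 with TPM as deposited, 9 within the prefix and 3 to 13 with a library left out. The replicate numbers are shared by the groups, and the correlation of deviations from the group means was 0.109, -0.04 and -0.083 for numbers 1 to 3. Of the title codes, 3 occur in both groups, and their pairs gave 0.109, -0.004 and 0.222. Pairs of unlike title code ran from -0.176 to 0.152. Deviations from means of 3 and 4 libraries cannot decide whether libraries were paired. The main fit used no pairing, and each label was run as a block. A replicate block by number gave 391 higher, 64 lower and 2 list genes, a block by title code 456 and 98, and neither called a member. Pax5 and Bhlha15 were called in every alternative, Ebf1 in all but the block by number (adjusted p = 0.062), and Spib in all but that block (0.0514) and the fit without PC replicate 2 (0.0515), by limma. The cause was not tested for any of these changes. At this depth, Id1 and the lowest Id2 values were limited by counting.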
